A study of Mus musculus with 122 samples.

Results

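CLC is a chimera that carries the zinc fingers of CTCFL between the ends of CTCF, and its FLAG ChIP-seq peaks were compared between cells that retained endogenous CTCF and cells from which it had been degraded. The libraries were 4 of the 122 samples of the series, namely replicates 1 and 2 of CLC D and replicates 1 and 2 of CLC ID, and they were chosen by antibody, transgene and treatment. All were E14Tg2a mouse embryonic stem cells in which both Ctcf alleles carried the auxin-inducible degron and eGFP, the auxin receptor Tir1 was expressed from the Rosa26 locus, and a doxycycline-inducible CLC with FLAG and mRuby2 tags had been placed at the Tigre locus. D cells received doxycycline (Dox, 1 µg/ml), so CLC was made beside tagged endogenous CTCF. ID cells received auxin (IAA, 500 µM) together with Dox, so CLC was made while CTCF was degraded. The sample labels give 24 h of treatment and the protocol gives 2 days. Lines were grown from picked clones, and no label says that the replicates came from separate cultures, so the spread between them may be technical.

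CTCF is a zinc finger protein that binds DNA in most cell types and halts the cohesin ring as it extrudes chromatin loops. CTCFL, also called BORIS, is its paralog and is normally made in male germ cells. Both proteins read a similar DNA motif through their zinc fingers and differ in the sequences on either side of these, and the N terminus of CTCF is known to engage cohesin. The FLAG tag is carried by CLC and not by endogenous CTCF, but a FLAG peak can also mark DNA held by a protein that CLC was bound to, and these were not told apart.

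A site was called where merged peaks of both replicates overlapped by at least 1 bp. There were 7599 sites in CLC D and 17876 in CLC ID, which made 19779 places when the ID sites and the D sites without any ID peak were counted together. An ID site was gained where neither D replicate had a peak (9720 sites, 54.4% of ID sites), kept where a D site overlapped it (4906 sites, 27.4%), and between these where it overlapped a D peak but no D site (3250 sites, 18.2%). Of the between sites 2971 had a peak of D replicate 2 alone, 23 had peaks of both D replicates in places that formed no D site within them, and the others had a peak of D replicate 1 alone. A D site was lost where neither ID replicate had a peak (1903 sites, 25% of D sites). Without D replicate 1 there were 7899 kept and 3959 lost sites, without D replicate 2 there were 3589 lost, and without ID replicate 2 there were 15116 gained. These classes were drawn from the FLAG calls themselves, so peak numbers and CLC enrichment by class are descriptions. No peak means that none passed the authors' threshold and not that signal was 0.

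The sequences below show what gained, kept and lost places look like, in GRCm38, on the minus strand for Ap1m1 and the plus strand for the others, with the best match to the CTCF core motif in capitals where there was one. The first 5 are gained sites, at the promoters of Ap1m1 (chr8:72239665-72239728), Entpd1 (chr19:40612389-40612452) and Gc (chr5:89455693-89455756) and away from promoters near Tcp10c (chr17:13337485-13337548) and Igsf11 (chr16:39083543-39083606).
Ap1m1: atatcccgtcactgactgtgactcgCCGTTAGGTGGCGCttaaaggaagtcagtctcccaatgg
Entpd1: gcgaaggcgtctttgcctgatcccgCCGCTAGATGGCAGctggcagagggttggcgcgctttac
Gc: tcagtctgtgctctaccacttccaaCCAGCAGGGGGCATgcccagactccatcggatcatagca
Tcp10c: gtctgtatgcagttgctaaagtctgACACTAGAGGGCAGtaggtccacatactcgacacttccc
Igsf11: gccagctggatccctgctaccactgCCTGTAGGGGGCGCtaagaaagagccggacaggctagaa
The kept site nearest to Olfr161 (chr16:3122958-3123021) has the motif as well.
Olfr161: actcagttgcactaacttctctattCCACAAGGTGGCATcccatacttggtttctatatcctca
The lost site nearest to Kcna1 had another kind of sequence, shown as 60 bases from its middle (chr6:126664250-126664309). It has no motif match and runs through alternating purine and pyrimidine bases.
Kcna1: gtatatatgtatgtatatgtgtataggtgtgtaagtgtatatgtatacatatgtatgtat

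More CLC peaks were listed when CTCF was degraded. Merged peaks on chromosomes 1 to 19 and X numbered 9867 and 13583 in D replicates 1 and 2 (mean 11725 ± 2628 SD, n = 2) and 23899 and 21220 in ID replicates 1 and 2 (mean 22560 ± 1894 SD, n = 2), a ratio of 1.92. Both ID libraries lay above both D libraries, and with 2 against 2 an exact two-sided permutation test gave p = 0.333, the smallest it can give. Other chimeras with CTCFL zinc fingers also had more peaks in ID. CLL, with the N terminus of CTCF alone, had 2189 and 14593 peaks in D and 18798 and 27051 in ID (ratio 2.73), and LLC, with the C terminus of CTCF alone, had 3731 and 11450 in D and 9441 and 12519 in ID (ratio 1.45), where the treatments overlapped. Their labels give 48 h of treatment, against 24 h for CLC, and the replicates of each D group were far apart. The ratio was 1.17 for LCL, the reciprocal chimera with CTCF zinc fingers, where both ID libraries lay above both D libraries, 0.966 for CTCFL, whose libraries overlapped, and 0.731 for CTCF, where both ID libraries lay below both D libraries. The difference between transgenes was not tested. Of the D peaks, 77.6% of replicate 1 and 56.4% of replicate 2 were found in the other replicate, and of the ID peaks 77.1% and 85.7%. The median fold enrichment over local background, which is the ratio in the peak lists, was 5.39 and 4.69 in D and 4.23 and 4.96 in ID, so the D and ID libraries overlapped. The median −log10 q was 6.65 and 6.54 in D and 9.28 and 10.9 in ID, and the median width 304 and 340 bp in D and 534 and 540 bp in ID. The number of reads behind each ChIP library is unknown, so a larger number of bound places and a more sensitive library cannot be told apart.

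RNA from the transgene bears on the same comparison. Reads from its zinc finger part count towards Ctcfl, and in the RNA-seq of the CLC line the deposited normalized count of Ctcfl was 41.36 and 42.71 in untreated cells (U), 81.39 and 82.39 in IAA alone (I), 1791.35 and 1829.24 in D and 3441.02 and 2543.9 in ID. Both ID libraries lay above both D libraries, by 1.64-fold (log2 0.71 ± 0.15 SE, limma adjusted p = 0.00798), which is below the fold required for a call. Ctcf, which also counts reads from the ends of CLC, was at 10079.61 and 10161.76 in D and 10257.61 and 11400.62 in ID (log2 0.10 ± 0.12 SE, limma adjusted p = 0.586). For protein, the paper reported comparable transgene levels in D and ID by FLAG western blot. The part of the higher Ctcfl RNA in the larger number of CLC peaks was not tested.

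The number of gained sites depended on how many peaks of each list were used. When the 10284 top-ranked peaks by q value were taken from each of the 4 libraries, 2952 sites were gained, 3650 kept and 2394 lost. With peaks in repeats set aside first and 4650 top-ranked peaks taken from each library, 874 sites were gained, 2210 kept and 519 lost. Gained sites were thus fewer than kept ones when the lists were made equal in length, and more numerous than kept ones in the full lists.

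**Figure D1:**
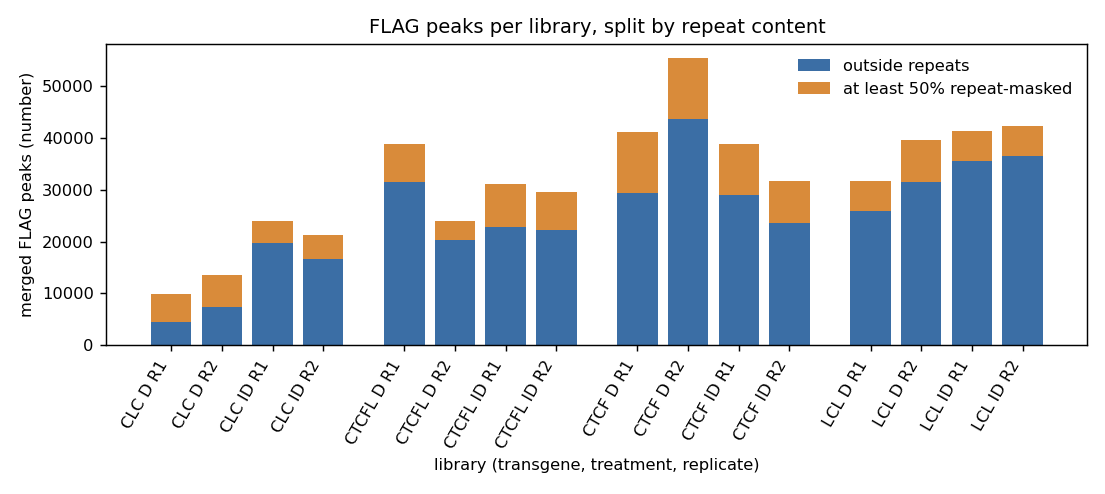
The number of merged FLAG peaks in each of 16 libraries, stacked by whether at least 50% of the 200 bp around the middle of the peak is repeat-masked. Outside repeats, CLC has 4407 and 7379 peaks in D and 19768 and 16651 in ID, while CTCFL has 31463, 20278, 22786 and 22282.

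Much of the CLC D peak set lay in repeats. A place was counted as repeat where at least 50% of the 200 bp around its middle is soft-masked in GRCm38, a criterion chosen after the lost sites had been read. In the D libraries 55.3% and 45.7% of merged peaks were repeat, against 17.3% and 21.5% in the ID libraries and 13.6% to 29% in the 12 libraries of CTCFL, CTCF and LCL. Both CLC D libraries lay above those 12, but within the range of the 8 libraries of CLL (94% and 59% in D, 46.8% and 38.7% in ID) and LLC (94.4% and 87.1% in D, 77.9% and 69.2% in ID). Outside repeats, the peaks numbered 4407 and 7379 in D and 19768 and 16651 in ID, a ratio of 3.09, and the ratio of CTCFL was 0.871, of LCL 1.25, of CTCF 0.72, of CLL 4.35 and of LLC 3.54.

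Nearly all lost sites were repeat. Of the 1903 lost sites 96.1% were repeat, compared with 14.4% of gained, 15.7% of between and 17.8% of kept sites. Outside repeats, 75 D sites were lost, 1.85% of the 4050 D sites there, while 8318 ID sites were gained, 55.1% of the 15089 ID sites there, and 4032 were kept. Of all D sites, 4902 overlapped an ID site (19.6% of them repeat), 794 overlapped a peak of a single ID replicate (95.8% repeat) and 1903 were lost. So among D sites with no reproducible ID counterpart, the repeat share was about the same whether 1 ID replicate or neither had a peak.

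The lost sites, nearly all of them repeat, differed from gained and kept sites in median base composition. In a lost site a median of 86.9% of neighbouring bases alternated between purine and pyrimidine, as in runs of TG or TA, against 44.2% in gained and 44.7% in kept sites. Their median GC content was 31%, against 50% in gained and 49.5% in kept sites. Kept sites in repeats had a median of 80.4% alternating steps and gained sites in repeats 47.2%, with a GC content of 41.5% and 47%. The strongest lost sites had clear peaks in both D replicates, at a fold enrichment of 9.68 and 9.36 in an intron of the collagen gene Col5a1, 9.23 and 10.1 near the potassium channel gene Kcna1, and 10.1 and 9.12 in an intron of the receptor kinase gene Grk3. At each of these 3 places both CTCFL ID replicates also had a peak, between 3.9 and 7.92. Over all lost sites CTCFL replicates 1 and 2 had a peak at 30.3% and 11.9% in D and at 47.9% and 43.5% in ID. The CTCF replicates had one at 32.3% and 9.98% in D and at 11.3% and 13% in ID. The LCL replicates had one at 18.8% and 26.6% in D and at 2.84% and 1.73% in ID, so LCL too had fewer there in ID. The CLL libraries had a peak at 17.9% to 59.4% of lost sites and the LLC libraries at 34.6% to 72.1%, in D and ID. Peaks at these repeats thus differed between replicates of 1 group and were also seen with other transgenes, and which protein or procedure gave rise to them was not tested.

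**Figure D2:**
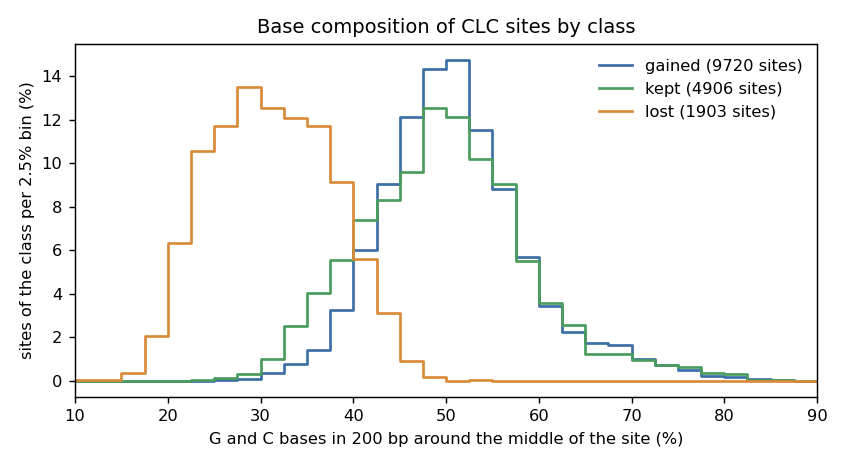
Distribution of the GC content, in percent of the 200 bp around the middle of each site, for gained, kept and lost CLC sites, each as a share of its class per 2.5% bin. The lost sites are centred near 31% and the gained and kept sites near 50%, with a shoulder of kept sites below 40%.

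Gained sites lay at promoters and in introns in about the proportions of kept sites. Within 3 kb of an annotated start lay 27.4% of gained, 26.5% of between and 29% of kept sites, against 18.6% and 20.1% when the gained and kept sites were moved by 10 kb. Introns held 34.9% of gained and 35.2% of kept sites, intergenic sequence 33.9% and 31.3%, and exons 3.93% and 4.48%. Lost sites were at promoters in 11.1% of cases, no more than the 12.4% of the same sites moved by 10 kb, and their median distance to a start was 18893 bp, against 9176 bp for gained and 8178 bp for kept sites. On the X chromosome lay 1.94% of gained, 1.63% of between, 0.754% of kept and 0.0525% of lost sites. Gained regions were narrower than kept ones, with medians of 614 and 1195 bp.

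Places gained by CLC were mostly places where the parent proteins were found. CTCF expressed as a transgene with endogenous CTCF present had a site at 83.4% of gained CLC sites, against 5.87% when these were moved by 10 kb, and at 92.5% of kept sites. CTCFL ID sites overlapped 87.6% of gained and 97.9% of kept sites, and LCL ID sites 85.9% and 86%. Single CLL ID replicates had a peak at 40.6% and 81.3% of gained sites and at 95.1% and 99.2% of kept sites, and single LLC ID replicates at 2.06% and 5.3% of gained and 41.7% and 62.6% of kept sites. CTCFL D sites overlapped 72.1% of gained sites and 94.8% of kept sites, with the 2 CTCFL D replicates alone at 90.2% and 72.3% of gained sites. Sites of both parent proteins were present at 78.4% of gained and 93.5% of kept sites, counting D and ID sites of each parent together. CTCFL alone was present at 11.8% of gained sites, CTCF alone at 6.35% and neither at 3.38%, and the same shares of kept sites were 5.16%, 0.53% and 0.856%. Of the 1150 gained sites with CTCFL alone 52% were at promoters, compared with 24.9% of the 7624 with both parents and 14.6% of the 617 with CTCF alone.

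Seen from the parent proteins, CLC sites were more frequent in ID in every class. Parent sites were divided by whether CTCF ID and CTCFL D sites overlapped by at least 1 bp. CTCFL ID sites were not used here, so a CTCF-only site can hold a CTCFL ID site. With D and ID sites of each parent counted, CTCF alone was at 6.35% of gained and 0.53% of kept CLC sites. The paper required an overlap of 66% of both peaks, so its classes are not the same sets. In its clustering, CLC bound weakly at part of the CTCF-only sites in D but not in ID. At the 14167 CTCF+CTCFL sites, CLC had a site at 30.6% in D (single replicates 31.8% and 47.2%) and at 85.7% in ID (89.3% and 88.3%). At the 8167 CTCFL-only sites it had a site at 9.01% in D (10.3% and 16.4%) and 29.8% in ID (41.5% and 36.5%). At the 16150 CTCF-only sites it had a site at 1.42% in D (1.74% and 2.6%) and 14.4% in ID (19% and 18.1%), where sites moved by 10 kb gave 0.638% and 2.33%. In each class both ID replicates lay above both D replicates. At promoters, the CTCFL-only sites were overlapped at 4.3% in D and 26.7% in ID, and away from promoters at 14.4% and 33.4%.

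**Figure D3:**
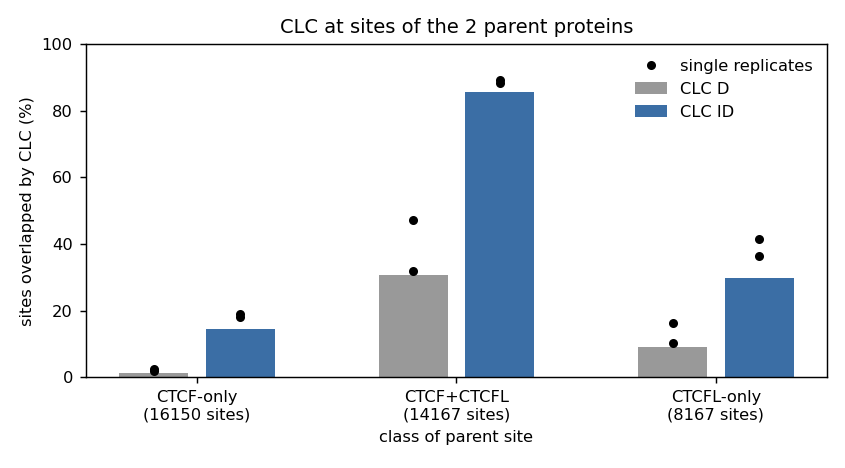
The share of CTCF-only, CTCF+CTCFL and CTCFL-only sites, in percent, that a CLC site overlaps in D (grey bars) and in ID (blue bars), with points for each CLC replicate alone. The CTCF+CTCFL sites go from 30.6% in D to 85.7% in ID and the CTCF-only sites from 1.42% to 14.4%.

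Whether a CLC ID site was gained varied with CTCFL enrichment and little with CTCF enrichment at the same place. When CLC ID sites were ordered by the fold enrichment of CTCFL ID there, the gained share was 72.2%, 62.8%, 47.3% and 25.9% from the lowest to the highest of 4 equal bins, and 79.7% where CTCFL ID had no site. Ordered by CTCF ID instead, it was 51.7%, 54.5%, 53.5% and 50.4%, and 62.3% where CTCF ID had no site. Ordered by CLC ID itself it was 78.3%, 69.6%, 46.9% and 22.7%, a measure that the classes share. Within these CLC bins, places with a CTCF ID site were gained at 82.7%, 71.8%, 47.3% and 22.9%. Places without one were gained at 71.2%, 62.6%, 43.2% and 17.8%, so within bins the order was the reverse of that over all sites. The 4091 sites in the top CTCFL bin reached from a fold enrichment of 8.41 to 17.9, and the 3624 in the top CTCF bin from 12.2 to 21.6. The share thus spanned a wide range over the CTCFL bins and a narrow one over the CTCF bins. CTCFL enrichment was not compared within the CLC bins. Its range therefore cannot be told apart from that of CLC enrichment, which the classes share.

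**Figure D4:**
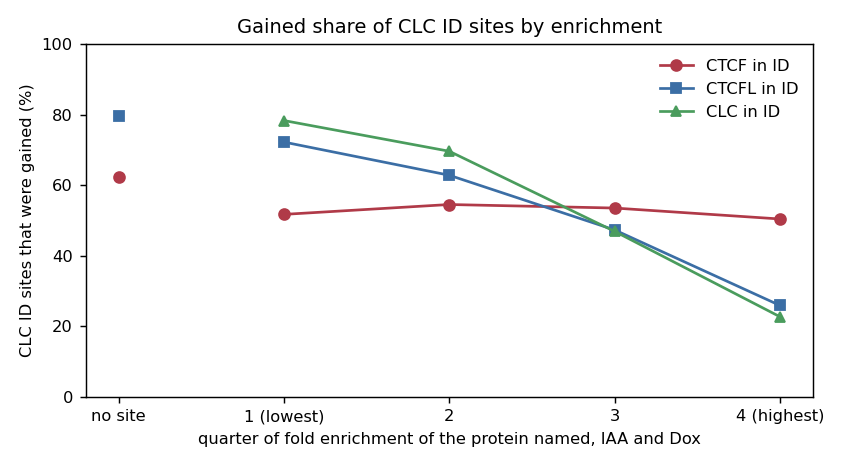
The percent of CLC ID sites that were gained, in 4 equal bins of the fold enrichment of CTCF, CTCFL or CLC in ID cells, with sites lacking a site of that protein at the left. The CTCFL line falls from 72.2% to 25.9% and the CTCF line stays between 50.4% and 54.5%.

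The CTCF core motif was less frequent in gained than in kept sites. A match of the 14-position matrix within 50 bp of the CLC summit, on either strand and above the 95th percentile of control windows, was present at 32% of gained, 37.5% of between and 44.5% of kept sites, where control windows 1000 bp away had 5.04%, 5.14% and 5.25%. Of the 1903 lost sites 1 had a match (0.0525%, control windows 3.91%). Outside repeats the shares were 32.1% of gained and 50.4% of kept sites. Where sites outside repeats were compared within a bin of CLC ID enrichment, the gained sites had a match at 25.1%, 32.3%, 36% and 46.2% and the kept sites at 35.4%, 43.8%, 47.7% and 54.1%, so the kept share was above the gained share in every bin.

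The matches also differed in their bases. Position 3 of the matrix was A in 75.3% of matches at gained, 70.4% at between and 64.1% at kept sites, and position 12 was C in 86%, 90.4% and 92.8%. The difference at position 3 was present in each bin of CLC ID enrichment outside repeats (gained 70.4%, 68.9%, 77.8% and 77.2%, kept 63.2%, 66.1%, 62.8% and 61.9%). Among gained sites, A at position 3 was found in 79.9% of matches where CTCF ID had a site and in 46.7% where it had none. At kept sites these were 65.1% and 40.7%. The CLC summit lay a median of 42 bp from the CTCF ID summit and 48 bp from the CTCFL ID summit at gained sites, against 31 and 32 bp at kept sites.

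The strongest gained promoters belonged to genes of many kinds. At Ap1m1, which encodes a subunit of a clathrin adaptor, the fold enrichment was 9.16 and 9.09 in ID replicates 1 and 2 with no peak in either D replicate, over chr8:72239444-72240499. CTCF, CTCFL and LCL had sites there in both treatments, with CTCF at 11.1 and 9.73 in D and 14.6 and 15.9 in ID. Entpd1, an ectonucleotidase gene (chr19:40611891-40612816), was at 8.94 and 8.92 and Rpl27, a gene of the large ribosomal subunit (chr11:101441873-101443101), at 9.04 and 8.53. The ID replicates differed most at Dtx4, a ubiquitin ligase of Notch signalling, with 8.16 and 11.2, and at the heme-binding protein gene Hebp2, with 8.35 and 10.6. The promoters of Homer1, a synaptic scaffold, Gc, the vitamin D binding protein, Necap2, an endocytosis protein, Mettl17, Gm49496 and Gm7075 lay between 8.15 and 9.39 in both ID replicates. Of the 12 promoters, 11 had CTCF D and LCL ID sites, and Zfp109 did not. At Zfp109, a zinc finger gene (chr7:24237212-24237810), CLC was at 8.92 and 7.96 in ID and CTCFL at 10.2 and 11.7 in D and 11.3 and 8.09 in ID, while no CTCF or LCL library had a peak.

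Away from promoters the highest gained site was intergenic, nearest to Tcp10c (chr17:13337017-13337725), at 11.1 and 12.9 in ID. It held CTCF at 10.9 and 14 in D and 18.6 and 22.7 in ID. CTCFL had a peak there in 1 of the D replicates (6.19) and in both ID replicates (13.3 and 9.07). Sites in an intron of the actin-binding gene Synpo2 (10.5 and 10.6) and in Lrrc9 near Pcnx4 (9.68 and 10.2) were next to intergenic ones near the homeobox gene Gsx1 (10.5 and 9.79), the adhesion gene Igsf11 (9.83 and 10.2) and the natural killer receptor gene Klrb1a (9.66 and 9.7). The replicates differed most at the site near Tcp10c. LCL had no peak at the Igsf11 site in any of its 4 libraries.

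Kept sites reached higher values. The highest, nearest to Rpusd4 (chr9:35305088-35305647), was at 18.5 and 17.7 in D and 16.1 and 18.5 in ID, but all 12 libraries of CTCFL, CTCF and LCL also had a peak there, between 15 and 19, as did all 8 of CLL and LLC, between 17.2 and 20.5, and the 200 bp around its middle are 100% repeat-masked. Near Aida the values were 15.6 and 14.3 in D and 16.4 and 14 in ID, and near Ly6c2 12.5 and 12.5 in D and 13 and 13.9 in ID, so the treatments overlapped at the first and were close at the second. Near Pak3 on the X chromosome D was above ID, at 16.8 and 17.9 against 11.7 and 12.4. Near Olfr161 ID was above D, at 13.2 and 12.4 against 9.99 and 11.7. At the sites near Aida, Ly6c2, Pak3 and Olfr161 all 12 libraries of CTCFL, CTCF and LCL had a peak as well.

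**Figure D5:**
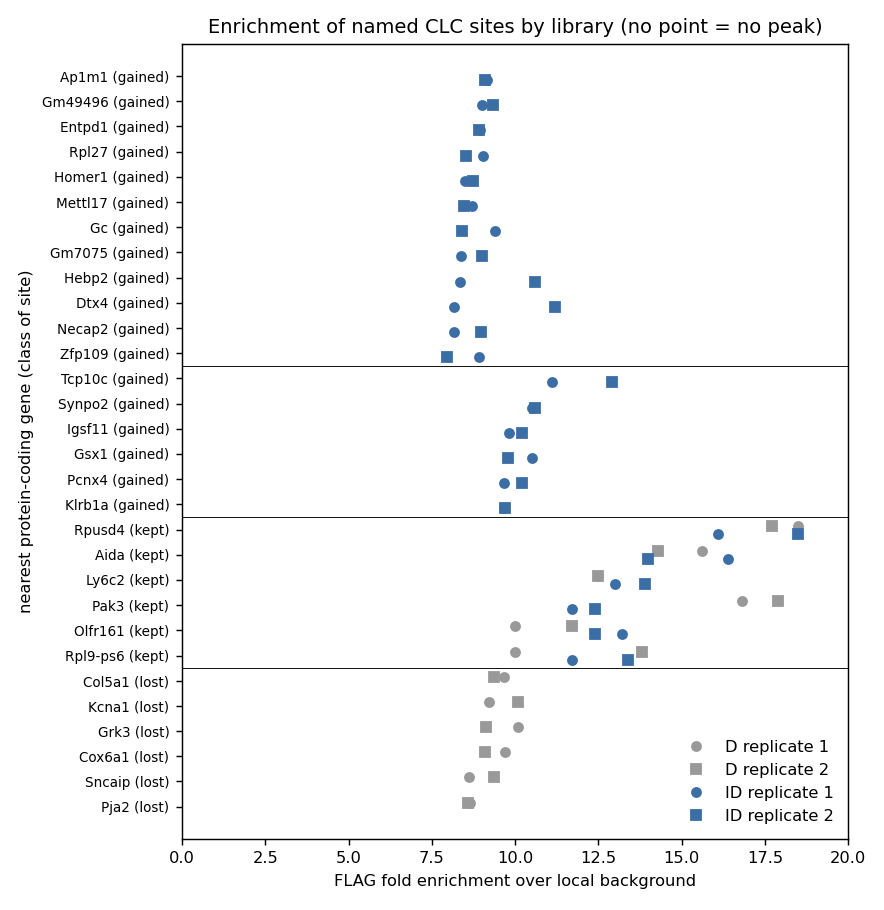
FLAG fold enrichment of the named CLC sites in D replicates (grey) and ID replicates (blue), with circles for replicate 1 and squares for replicate 2 and no point where there was no peak. The 18 gained sites lie between 7.96 and 12.9 in ID, and the 6 lost sites between 8.58 and 10.1 in D.

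Sites shared by all 4 libraries allowed a test of enrichment. At 4912 such regions the median fold enrichment was 5.72 and 5.35 in D and 5.97 and 7.59 in ID, and the median log2 difference of ID from D was 0.23. It was positive at 72.2% of regions. The test called 63 regions higher in ID (1.28%) and 26 lower (0.529%) (limma with Benjamini-Hochberg adjusted p under 0.05), and 1060 had an unadjusted p under 0.05. The split turned with the scaling. With each library centred on its median, 100 regions were higher and 369 lower. Outside repeats the median difference was 0.28 over 4040 regions, with 80.1% positive, and in repeats it was −0.18 over 872 regions, with 35.6% positive. The D replicates correlated with each other at r = 0.58 and the ID replicates at r = 0.83, while D and ID correlated between 0.26 and 0.37, over regions of the same libraries. The lane named in the data files crosses the replicate numbers, and with lane as a block 1019 regions were higher and 212 lower, but with lane and centring together 0 and 0. The replicate number as a block left 2 higher and 5 lower. Leaving out D replicate 1 left 0 higher and 0 lower, and leaving out ID replicate 1 left 557 and 44.

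The difference of ID from D in CLC was then compared with that in its parent proteins. In 4636 regions with a peak in all 8 libraries of CLC and CTCFL, the median log2 difference was 0.25 in CLC and 0.26 in CTCFL, and the median of the paired difference was 0.00. By limma's interaction contrast 0 regions were higher in CLC (0%) and 3 lower (0.0647%), with 278 at an unadjusted p under 0.05. The 3 regions near Arhgef4, Creb5 and Foxn3 were repeat-masked over 100% of their 200 bp. Near Arhgef4 (chr1:34643398-34643861) CLC was at 8.92 and 8.82 in D and 2.67 and 4.03 in ID, and CTCFL at 4.73 and 3.9 in D and 5.52 and 5 in ID. Against CTCF, in 4278 regions, the medians were 0.27 in CLC and 0.48 in CTCF, with a median difference of −0.19. Neither direction had a call (0% and 0%), 176 regions had an unadjusted p under 0.05, and the smallest adjusted p by limma was 0.284. These regions are the stronger ones, since gained sites have no value in D. No call here does not show that the proteins changed alike.

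Cohesin was read from RAD21 ChIP-seq of the same line, where RAD21 is a core subunit of the ring. Both replicates shared 356 RAD21 regions in CLC D and 155 in CLC ID. They overlapped 0.854% of gained and 2.59% of kept CLC sites in D, and 0.247% and 1.12% in ID. The replicates were unlike, with 1491 and 10771 regions in D and 2470 and 348 in ID. D replicate 2 overlapped 18% of gained and 24.4% of kept sites, while D replicate 1 overlapped 1.32% and 7.34%. In ID the single replicates gave 0.957% and 0.916% of gained sites, and 7.77% and 2.47% of kept sites. Kept sites had the higher share in every library, and gained sites of CLC had no more RAD21 in ID than in D. RAD21 replicate 1 in D and ID overlapped 11.8% and 11% of lost sites, and replicate 2 overlapped 1.47% and 0.158%.

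Genes whose promoter held a gained site were then followed in the RNA-seq of the CLC line. Of 15337 genes tested, 614 were higher in ID than in D (4.00%) and 544 lower (3.55%) at a limma adjusted p under 0.01 and a log2 difference above 1. Of the 1640 tested genes with a gained promoter 92 were higher (5.61%) and 75 lower (4.57%), so 10.2% were called, with a median log2 difference of 0.03. Genes with a kept promoter were called at 9.82% (52 higher and 43 lower of 967), those with a between promoter at 11% (25 and 37 of 564), those with a lost promoter at 9.09% (3 and 2 of 55), and genes with none at 6.87%. In IAA alone against untreated cells, where no CLC was induced, 1027 genes were higher (6.70%) and 935 lower (6.10%). There, 15.2% of genes with a gained promoter and 18.7% of those with a kept promoter were called, against 11.9% of genes with none. Promoters that CLC bound were thus above the other genes in the share called in both contrasts, and the direction was split in each. The contrasts share no library but came from 1 fit with a common variance for each gene, so they are not independent. Genes with and without a CLC site were not matched for expression.

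The largest calls among genes with a gained promoter included several genes of the nervous system. Bhlhe23, a transcription factor gene, was at 4.84 and 0 normalized counts in D and 112.09 and 90.24 in ID (log2 5.39 ± 0.70 SE, limma adjusted p = 8.0e-04), and at 20.26 and 16.61 in U and 84.08 and 67.33 in I. The gained CLC site lay 2618 bp from its start, at 5.48 and 6.25. Oas1e, of the 2′-5′ oligoadenylate synthetase family, was at 10.66 and 3.96 in D and 185.07 and 188.67 in ID (log2 4.63 ± 0.39 SE, limma adjusted p = 1.2e-04), and it was also higher in I than in U (log2 4.11). Nxph3, a neurexophilin gene, was also higher (log2 3.86 ± 0.60 SE). These 3 genes were higher in both ID libraries than in both D libraries.

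Another 6 genes were lower in ID. Scn3a, a sodium channel gene, was at 210.23 and 233.5 in D and 14.29 and 20.96 in ID (log2 −3.60 ± 0.31 SE, limma adjusted p = 1.3e-04), with its gained CLC site 66 bp from the start at 5.94 and 6.02. Dab1, the adaptor of Reelin signalling, was at 100.76 and 116.36 in D and 3.76 and 8.2 in ID (log2 −4.05), and held 2 gained sites at its starts. Both were also lower in I than in U, by log2 −4.59 and −5.35. The synapsin gene Syn3 (log2 −4.81), the integrin gene Itga8 (−4.07), Ccdc122 (−4.10) and Ccser1 (−3.95) were low in ID as well, with D values between 25.33 and 77.57. In I against U, Syn3 differed by log2 −2.05 (limma adjusted p = 0.066) and Itga8 by −2.77 (limma adjusted p = 0.015), which were no calls. The direction in I against U was the same as in ID against D for each gene named here with a gained promoter and a large call, and how much of the difference in ID came with CLC at the promoter was not tested.

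Among the genes tested, promoters with the highest CLC enrichment did not have the largest RNA differences. Dtx4 was lower in ID, at 18.81 and 17.32 against 95.91 and 84.69 in D (log2 −2.26 ± 0.27 SE, limma adjusted p = 5.4e-04). Ap1m1 was at 3484.65 and 3150.03 in ID against 1762.28 and 1650.36 in D (log2 0.96 ± 0.09 SE, limma adjusted p = 2.0e-04), just under the fold required, and at log2 0.26 in I against U. Rpl27 and Hebp2 differed by log2 −0.06 and −0.34 and were not called. Of the 30 genes nearest to the named gained, kept and lost sites 18 were tested, and Entpd1 and Gc were among those not tested. Beside Dtx4, the genes called were Col5a1 (log2 1.42, higher in ID) and Ly6c2 (log2 2.31, higher in ID). The sites lay 62106 and 24851 bp from the starts of Col5a1 and Ly6c2. Over all genes tested 7.55% were called.

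At loci displayed in the study, CLC was mostly present with and without CTCF. Of 15 such genes 9 had a kept promoter (Ctcfl, Prss50, Stra8, Rapgef1, Zbtb45, Mrps33, Gadd45g, Steap1 and Egr1) and 1 had a gained one, Gal3st1, a sulfotransferase gene of the testis. These loci were picked by the study from such data and their count is no independent evidence. Gal3st1 was at 5.5 and 7.64 in ID with no peak in D. Stra8, a gene for entry into meiosis, was at 9.88 and 6.5 in D and 5.3 and 7.43 in ID, and Rapgef1 at 11.6 and 7.29 and 5.58 and 8.88, so at both the treatments overlapped. At the Ctcfl promoter CLC was at 4.92 and 5.13 in D and 7.06 and 8.12 in ID, with 2 gained sites and 1 between site further into the gene. In RNA, Zbtb45 was higher in ID (log2 1.14 ± 0.10 SE, limma adjusted p = 1.3e-04) and Steap1 lower (log2 −2.42 ± 0.35 SE, limma adjusted p = 0.00121), and no other locus was called. Zbtb45 differed by a like amount in I against U (log2 0.98), and Steap1 by log2 −0.52 there.

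By gene group, gained promoters were counted beside all 21728 protein-coding genes, of which 8.78% had a gained, 5.17% a kept, 2.96% a between and 0.354% a lost promoter. Of 16 cohesin genes 4 had a gained promoter (Smc3, Stag1, Stag2 and the loader Nipbl) and 2 a kept one (Pds5b and Esco1). Among these 16, 15 were tested in RNA, and Smc1b, a meiotic subunit without a CLC promoter site, was the gene called (log2 −1.65, lower in ID). Of 18 pluripotency genes 5 had a gained promoter (Klf4, Tfcp2l1, Tbx3, Tdgf1 and Sall4) and Sox2 and Klf5 a kept one. Klf4 RNA was level, at 24733.99 and 23550.62 in D and 22864.65 and 22670 in ID. Dppa3 was higher (log2 1.13) and Lin28a lower (log2 −1.17), and neither had a CLC promoter site. Of 20 testis and germline genes 6 had a kept promoter and 1 each a gained and a between one (Gal3st1 and Dazl), and Rec8, the meiotic cohesin subunit with a kept promoter, was higher in ID (log2 1.34) and in I against U (log2 1.92). Of 18 imprinted genes 2 were gained (Peg10 and Gnas) and 2 kept (Meg3 and Grb10), and Grb10 and Dlk1 were lower in ID (log2 −1.70 and −1.61). Dlk1 had no CLC promoter site and went the other way in I against U (log2 1.35), where Grb10 was lower (log2 −1.53). Of 39 Hox genes 3 were gained (Hoxa5, Hoxa10 and Hoxd8), 1 was between and none was kept, with 3 higher and 1 lower in RNA of 21 tested. Over all genes tested these calls are 4.00% and 3.55%. The lists are small and no test was made of any of them.

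The cells expressed the markers of embryonic stem cells. The summed normalized counts of 10 such markers were between 226995 and 301128 in the 8 RNA libraries of the CLC line, with both ID libraries (257090 and 262626) below both D libraries (291743 and 301128) and both I libraries below both U libraries. None of the 10 reached the fold required for a call in ID against D, but they did not move alike. Dppa5a (log2 −0.77, limma adjusted p = 0.00104) and Esrrb (log2 −0.68, limma adjusted p = 4.4e-04) were lower. Tdgf1 was higher (log2 0.42, limma adjusted p = 0.00414), and Pou5f1 was level (log2 0.01). The summed counts of 10 markers of other cells were between 600 and 792, with D and ID overlapping. Of the 6 of these tested, Gata6 and Sox17 were higher in ID than in D (log2 1.29 for each) and none was lower by the call, while Eomes (log2 −0.90), Pax6 (−1.21) and Sox1 (−0.58) had negative values and the median was −0.01. The part of such cells in the RNA differences was not tested.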

How the data were processed

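The authors trimmed reads with Trim Galore 0.4.4, aligned ChIP-seq reads with Bowtie2 to GRCm38/mm10, retained unique reads without duplicates and ran MACS on each replicate (q under 0.05) (SAMtools 1.3 is also in the submitters' processing notes). The paper and the peak names give different MACS versions, and the control library is not given in the sources used here. Fold enrichment in the deposited lists is a ratio that the authors' peak caller computed over local background, and −log10 q is deposited beside it. ChIP depth is unknown. IgG, RNase and mock libraries were not analysed here. RNA-seq reads were aligned with STAR by the authors. The RNA signal values were deposited by the authors as gene counts divided by a size factor, and 100% of values up to 500 reads were whole multiples of 1 read within a tolerance of 0.1, which gave between 26349345 and 39671659 reads per library.

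Overlapping peaks of a library were merged, and a site needed both replicates (at least 1 bp). Annotation was GENCODE vM21 basic (75451 start positions), with promoters within 3000 bp. The matrix of 14 positions was estimated in 10 rounds with 0.5 added to each base count. It used the 9755 CTCF ID sites that overlapped a CTCFL D site by at least 66% of both regions. Fold enrichment (log2) and RNA (log2(value + 1), genes with a mean of at least 10, U, I, D and ID in 1 fit) were tested with limma 3.58.1 in R 4.3.3, which was tested on simulated data. Low genes have understated fold changes on this scale. RNA was also tested with edgeR 4.0.16 and DESeq2 1.42.0 on recovered reads. Sequence was read in Python 3.11.15 (numpy 2.4.6, pysam 0.24.0). Of the 52459 genes with RNA values, 46503 were matched by symbol.

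Named sites were the 12 gained promoters and 6 gained distal sites highest in the lower ID replicate, the 6 kept sites highest in the lowest library, the 6 lost sites highest in the lower D replicate and the loci displayed in the study, and named RNAs were the 10 largest calls among genes with a gained promoter, of which 1 is not reported here. Sites, classes, gene lists and tests were chosen with earlier results of these data known. Other alternatives were an overlap of 50%, a −log10 q of at least 5, equal numbers of top-ranked peaks, single lanes and each library left out. Genes sharing sequence with a near copy, such as Oas1e, may share reads.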

Additional observations from a re-analysis of the deposited data

Results flagged for a closer look

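The change from D to ID differed between CLC and CTCFL, by limma's interaction contrast (adjusted p = 0.00192 for each), at a region near Arhgef4 (log2 difference −1.73), one near Creb5 (−1.72) and one near Foxn3 (−1.72). In all 3 CLC was lower in both ID libraries than in both D libraries and CTCFL was higher in both ID libraries. The second (chr6:53561610-53561985) and the third (chr12:99632627-99633199) have a GC content of 32% and 26% and are repeat-masked over 100% of the 200 bp around their middle, like the first. None was called with the replicate block, without CLC ID replicate 1 or without CTCFL D replicate 2. Merged CTCF peaks went from 41222 and 55408 in D to 38919 and 31736 in ID, a ratio of 0.731, while every CLC ID library was above every CLC D library. This difference between transgenes was not tested. Groups of 2 libraries allow no test for a library far from the others.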

How the results depend on the processing

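The 25 results that answer a comparison were recomputed under each alternative, and 57 counts and 68 shares moved while 62 counts and 36 shares did not (a count moved where it changed by over 1.5 times, and a share where it changed by at least 1 SD between single replicates). Site counts moved with the definition of a site. Lost sites numbered 3666 with an overlap of 50%. Top-ranked peaks of equal number gave 2952 gained sites, and outside repeats 874 gained, 2210 kept and 519 lost. Lane 5 alone gave 15305 gained and 3908 lost, and lane 8 alone 15468 gained, 8431 kept and 4792 lost. Without repeat regions 75 were lost. With each CLC library left out, the gained sites numbered 9977 to 15116 (highest without ID replicate 2), the kept 5168 to 7899 (highest without D replicate 1) and the lost 2135 to 3959.

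Shares of gained sites, in the order CTCF D, CTCFL ID and LCL ID, were 97.8%, 99.7% and 98.1% with equal numbers of peaks, 99.8%, 100% and 99.8% with equal numbers outside repeats, and 60.5%, 80.3% and 61.5% with an overlap of 50%. With peaks limited to a −log10 q of 5 or more, CTCF D was at 88.6% and LCL ID at 89.7%. In the same order, kept sites were at 96.6%, 99.3% and 92.9% with that q, 98.3%, 100% and 97.3% with equal numbers, 99.4%, 100% and 99.3% with equal numbers outside repeats, 86.9%, 93.9% and 80.4% with an overlap of 50%, and 97%, 99.2% and 94.8% without repeats. With a library left out they ranged over 70.5% to 84.3%, 69.9% to 89.1% and 76.1% to 85.6% of gained sites, and 85.5% to 91.8%, 95.3% to 97.6% and 77.1% to 85.5% of kept sites.

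The promoter share of gained and kept sites was 16.6% and 17% within 1 kb, 19.6% and 21% for protein-coding starts, 29.4% and 32.1% without repeats, and 31.5% and 35% with equal numbers outside repeats. That of kept sites was 30.8% at the stricter q and 31.2% with equal numbers. Leaving out a library gave 27.1% to 28.9% and 27.3% to 28.8%. The motif share was 18.1% and 24.5% within 25 bp, 54.3% and 66.7% within 100 bp, 42.1% and 51.5% with equal numbers, and 49.8% and 55.6% with equal numbers outside repeats. With a library left out it was 21.9% to 33.4% of gained and 32% to 44% of kept sites, lowest in both without ID replicate 2. RAD21 replicates alone gave 18% of gained and 24.4% of kept sites (D replicate 2), and 0.957% and 0.916% of gained and 7.77% of kept sites in ID.

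At regions shared by the CLC libraries, the replicate block left 2 higher and 5 lower. The labels number replicates without saying that numbers pair libraries, and the deviations of same-numbered D and ID libraries correlated at −0.18, against 0.18 for those of the same lane, a crossing that is only a hint from the data. The lane block gave 1019 higher and 212 lower, centring 100 and 369, and the lane block with centring 0 and 0. With −log10 q in place of fold enrichment there were 4022 and 70. Leaving out repeats gave 31 and 2, and with centring as well 47 and 109. Calls in either direction thus rest on scaling and lane. Leaving out a library gave 0 to 557 higher and 0 to 44 lower. In the comparison with CTCFL, centring gave 6 regions higher and 24 lower in CLC and the replicate block 0 lower, and leaving out a library 0 to 2 higher and 0 to 7 lower. In that with CTCF, centring gave 9 and 1, and leaving out a library 0 to 3 and 0 to 115, the most without CTCF D replicate 1.

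RNA calls were 221 higher and 177 lower with no filter on low values and 356 to 438 and 272 to 391 with a library left out. The replicate block gave 519 and 456, edgeR 607 and 571, and DESeq2 706 and 673. Of the 1158 calls 1139 were also called by edgeR and 1151 by DESeq2. The causes of these differences were not tested. The comparison with CLL and LLC, alternatives without repeat regions, with equal numbers outside repeats and with lane and centring together were chosen after the data were seen. With unknown ChIP depth, a place without a peak in D cannot be told from one below the limit of that library.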
